A study of Mus musculus with 6 samples.

Results

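The genes described here are 50 genes of glucose transport, glycolysis, pyruvate handling and the response to low oxygen, measured in embryonic mouse heart muscle cells that had or lacked Yap. They were listed by name in 4 groups, with 3 genes of glucose transport, 20 of glycolytic steps, 8 of pyruvate handling and 19 hypoxia genes outside these routes, called non-metabolic here. Each gene was read from a probe set annotated with its symbol alone, the brightest one where there were several. This gave values for 46 genes, with Pkm2 annotated as Pkm and Ero1l as Ero1a. Gpi1, Pfkfb1, Gapdh and Eno1 were matched by no such probe set, and their expression is not analysed here. Car9 and Car12 lay under the filter, an intensity of 85.7 that is the 40th percentile of all probe sets. The other 44 genes were tested among 13632 genes in all.

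RNA came from hearts of E12.5 embryos and was measured on 6 arrays. TNTCre, Yap flox and R26 mTmG mice were mated, so the cells of both groups shared a Cre under control of the troponin T promoter of heart muscle, floxed Yap1 and a reporter, and the sort took cells that had turned green after Cre acted. The groups were Yap HET (heterozygous) and Yap KO (knockout), with 3 arrays each that the series calls biological replicates. Yap HET cells are not wild type, Cre acts in cardiomyocytes only, and neither litters nor pooling of hearts are stated. Array values are linear intensities in the order of replicates 1, 2 and 3, with Yap HET first and Yap KO second. Changes are Yap KO minus Yap HET on the log2 scale ± the standard error (SE), means are given ± the SD (n = 3), and adjusted p-values come from limma with the Benjamini-Hochberg method over all genes tested. A gene is said to rise or fall where its adjusted p is under 0.05.

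Glycolysis splits glucose to pyruvate in the cytosol, and the embryonic heart relies on it more than the adult heart does. When oxygen falls, the prolyl hydroxylases that mark HIF alpha subunits for destruction slow down. HIF then binds short DNA elements and raises genes for glucose uptake, glycolysis, lactate export and restraint of pyruvate dehydrogenase, along with genes for mitophagy, collagen modification and vessel growth.

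Yap1, the deleted gene, read 886, 927 and 871, then 103, 84.7 and 86.6 and fell without overlap (-3.29 ± 0.08, limma adjusted p = 2.70e-06). Median intensities of the arrays lay between 128 and 139.6. Summed intensities of 8 cardiomyocyte markers overlapped (58080.5 to 59003 in Yap HET and 57175 to 58984 in Yap KO cells), and limma called 0 of them (1 had an unadjusted p under 0.05). Marker sums of mesenchymal and cushion cells did not overlap, at 4347 to 4515 and 5471 to 6938, with 4 of 8 genes higher. Endothelial sums, at 1344 to 1427 and 1590.3 to 1715, did not overlap either, with 2 genes higher and 1 lower of 7 tested. Immediate early genes, which respond to dissociation, summed to 21187 to 21764 and 16628 to 18322, with 5 of 10 lower. Sums overlapped for erythroid genes (442 to 847 and 579 to 2734, highest in Yap KO replicate 1), epicardial genes (3248 to 4015 and 2032 to 3299), macrophage genes (1718 to 2022 and 1819 to 2001) and neural genes (631 to 720.3 and 633 to 685). Of these, Lyz2, a macrophage marker, was the single gene called, higher in Yap KO cells. The erythroid sums of the Yap KO arrays were 2734, 1163 and 579. Of 5 erythroid genes tested 4 had a positive change, with a median of 0.57. The log2 change of Hbb-y was the largest of all genes tested (2.89 ± 1.14, limma adjusted p = 0.145). Hbb-y read 232, 27.1 and 19.8, then 1295, 450 and 86.3, with overlap. Of the tested genes, 3 of 6 macrophage and 3 of 7 epicardial genes were lower without overlap, against 17.2% of all genes, but missed the threshold. Calls in the marker lists stand against 5.16% of all genes that rose and 4.76% that fell. Sex-linked genes varied between arrays, and limma called 0 of the 4 tested. Xist read 2112, 2313 and 600.1, then 3015, 988 and 1356. The Y-linked Eif2s3y read 305, 191 and 788, then 19.7, 691 and 515. Yap KO replicate 1 was the highest array for Xist and the lowest for Eif2s3y. The sex of the embryos is not stated, and its part was examined only with Xist as a covariate, when 14 members rose, against 5.55% of all genes. No marker list summed to 0 on any array. The part of other cell types and of dissociation in the results was not tested, and in bulk samples fewer cells of a type and less RNA per cell cannot be told apart.

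Of the 44 members tested, 14 rose in Yap KO cells, against 5.16% of all genes tested, and limma called 0 lower, against 4.76% (9.93% in either direction). At an unadjusted p under 0.05 there were 23 members higher and 2 lower, against 13.9% and 14.4% of all genes. The rises comprised 10 of 17 non-metabolic hypoxia genes, 1 of 3 glucose transporters, 1 of 16 genes of glycolytic steps and 2 of 8 genes of pyruvate handling. The median log2 change was 0.31 in the non-metabolic group, 0.17 in glucose transport, 0.07 in glycolytic steps and 0.04 in pyruvate handling, against -0.02 over all genes. Every Yap KO array lay above every Yap HET array for 25 members, against 16.7% of all genes, and below for 2, against 17.2%. No test was made between the groups of genes. The count of 14 depended on single arrays. It was 4 when Yap HET replicate 1 was left out, 5 for Yap HET replicate 3, 4 for Yap KO replicate 1 and 2 for Yap KO replicate 2. Over all genes 1.67%, 2.31%, 3.24% and 1.57% rose in these settings, in this order. The count was 14 for each of the others, but with other members. Without Yap HET replicate 2 (5.74% of all genes rose) Pfkl took the place of Ak4. Without Yap KO replicate 3 (2.9%) Adm and P4ha2 took the places of Ak4 and Pdk1. With no filter on dim genes only Bnip3, Higd1a, Ndrg1 and Ankrd37 kept the call, and with the replicate number as a block Ak4, Mxi1, Pdk1 and Plod2 lost it. Over all genes 1.36% rose with no filter and 2.9% with the block. With median centring of the arrays 18 members rose, against 7.74% of all genes. Of the calls over all genes, 75.7% were then rises, against 52.0% with the values as deposited.

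**Figure D1:**
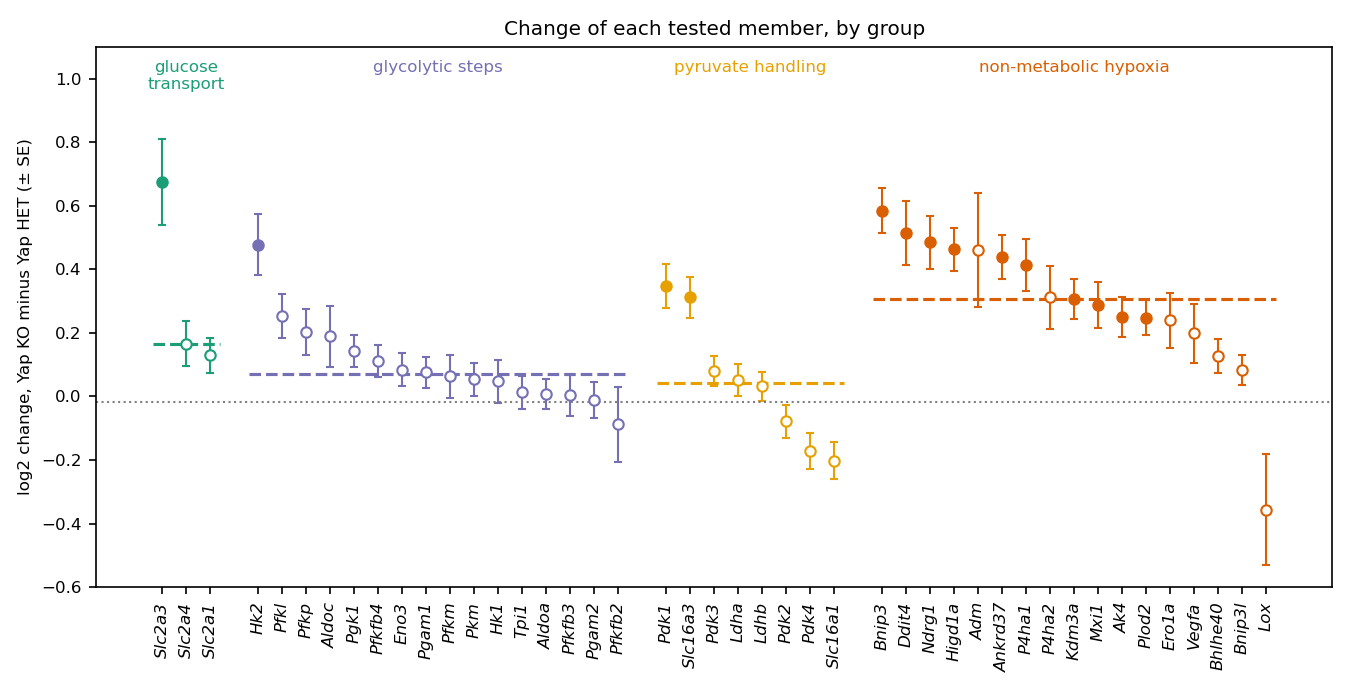
Log2 change (Yap KO minus Yap HET, ± SE) of the 44 tested members, by group. Filled points passed the test, dashed lines mark group medians (0.17, 0.07, 0.04 and 0.31 from left to right) and the dotted line the median of all genes tested (-0.02).

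Promoter windows are shown for the 6 members that rose most among those whose window holds the core letters of the hypoxia response element, so that these letters can be seen in place. Each window is from RefSeq on GRCm38.p6 and runs 5′ to 3′ on the strand of the gene, from 250 bases before its start to 50 after it. ACGTG and GCGTG were searched on both strands, and matches are in capitals, as CACGT or CACGC where the match is on the opposite strand. ACGTG also lies within the E-box CACGTG, which counts once on each strand. The windows are chr7:138909457-138909756 (minus strand) for Bnip3, chr10:59951721-59952020 (minus strand) for Ddit4 and chr6:82774405-82774704 (minus strand) for Hk2. Those of Higd1a, Ankrd37 and P4ha1 are chr9:121857747-121858046 (minus strand), chr8:45999801-46000100 (minus strand) and chr10:59323046-59323345 (plus strand).
Bnip3: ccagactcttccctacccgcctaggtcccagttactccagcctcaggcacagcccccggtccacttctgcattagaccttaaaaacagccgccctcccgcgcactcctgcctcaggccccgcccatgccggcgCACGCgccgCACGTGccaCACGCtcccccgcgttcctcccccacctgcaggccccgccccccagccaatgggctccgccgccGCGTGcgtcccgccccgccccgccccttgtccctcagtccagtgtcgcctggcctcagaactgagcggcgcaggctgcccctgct
Ddit4: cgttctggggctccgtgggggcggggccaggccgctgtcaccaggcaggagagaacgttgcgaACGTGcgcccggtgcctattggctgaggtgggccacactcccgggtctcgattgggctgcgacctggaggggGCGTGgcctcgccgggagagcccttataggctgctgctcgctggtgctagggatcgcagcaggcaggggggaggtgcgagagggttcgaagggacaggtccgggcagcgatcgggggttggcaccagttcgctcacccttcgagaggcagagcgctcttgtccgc
Hk2: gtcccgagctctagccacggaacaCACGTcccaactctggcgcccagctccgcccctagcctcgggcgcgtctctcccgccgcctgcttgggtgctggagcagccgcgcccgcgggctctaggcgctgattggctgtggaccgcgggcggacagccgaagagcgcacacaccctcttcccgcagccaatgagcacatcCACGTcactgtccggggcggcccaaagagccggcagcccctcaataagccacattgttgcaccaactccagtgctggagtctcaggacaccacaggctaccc
Higd1a: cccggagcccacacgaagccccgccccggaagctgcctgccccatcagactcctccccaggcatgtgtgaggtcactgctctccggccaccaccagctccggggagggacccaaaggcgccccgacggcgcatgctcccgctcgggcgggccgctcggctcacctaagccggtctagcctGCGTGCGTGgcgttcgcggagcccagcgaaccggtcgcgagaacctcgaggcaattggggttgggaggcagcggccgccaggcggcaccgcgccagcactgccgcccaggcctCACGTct
Ankrd37: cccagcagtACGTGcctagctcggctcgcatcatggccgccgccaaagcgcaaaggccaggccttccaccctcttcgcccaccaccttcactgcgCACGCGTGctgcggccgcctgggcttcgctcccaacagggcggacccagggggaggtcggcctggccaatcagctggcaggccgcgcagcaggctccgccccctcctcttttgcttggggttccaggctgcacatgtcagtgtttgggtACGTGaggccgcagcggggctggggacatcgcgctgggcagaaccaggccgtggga
P4ha1: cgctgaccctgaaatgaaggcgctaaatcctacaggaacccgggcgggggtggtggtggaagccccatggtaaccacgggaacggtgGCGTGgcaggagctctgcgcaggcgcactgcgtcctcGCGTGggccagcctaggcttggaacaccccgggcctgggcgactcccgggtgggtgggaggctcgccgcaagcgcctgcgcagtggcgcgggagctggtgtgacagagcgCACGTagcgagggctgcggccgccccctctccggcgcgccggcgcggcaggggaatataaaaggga

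The 2 ACGTG matches of Bnip3 are both strands of a single CACGTG whose first base lies 108 bases before the start. Hk2 had ACGTG on the opposite strand at 226 and 52 bases before the start, and Ankrd37 had it at 241 and 6 bases before. In P4ha1 it lay 16 bases before the start, in Ddit4 187 before, and in Higd1a 43 after. Windows were found for 43 members, all but Slc2a3, Slc2a4, Bnip3l, Ndrg1, Bhlhe40, Plod2 and Lox. The 43 include Gpi1, Pfkfb1, Gapdh, Eno1, Car9 and Car12, whose expression was not tested. Of the 43, 28 (65.1%) held ACGTG, against 28.1% of the tested genes with a window and 21.8% of all 27025 genes. Either motif was held by 39 members (90.7%), against 65.2% and 46.7%. Counted per window, ACGTG was in 47.1% of member windows, 24.3% of windows of tested genes and 19.6% of all 32851 windows. Either motif was in 75.7%, 59.6% and 43.8%. ACGTG was held by 9 of 11 members that rose (81.8%) and 17 of 26 tested members that did not pass (65.4%), or by 52.6% and 52.5% of their windows. Median GC content was 61.7% in member windows, 60.5% in windows of tested genes and 52.7% in all windows. These are counts of letters, with no test.

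Glucose transporters carry glucose into the cell. Slc2a3, the high-affinity form known from neurons and the embryo (probe set 10547641), read 662, 779 and 630.3, then 1252, 1192 and 886. The groups did not overlap, and Yap KO replicate 3 was the lowest of its group. The mean rose from 690.4 ± 78.2 to 1110.0 ± 196, 1.60-fold (0.67 ± 0.14, limma adjusted p = 0.0236). Leaving out either of Yap HET replicates 1 and 3 or of Yap KO replicates 1 and 2 ended this call (limma adjusted p up to 0.0968). Slc2a1, the widespread basal transporter, read 6695, 6802 and 6563, then 7529, 7523 and 6902, without overlap but short of the threshold (0.13 ± 0.05, limma adjusted p = 0.171). Slc2a4, the insulin-regulated form, read 621, 697 and 647, then 771, 758 and 676, and its groups overlapped (0.17 ± 0.07, limma adjusted p = 0.171).

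Among 16 genes of glycolytic steps only Hk2, the inducible hexokinase that traps glucose in the cell (probe set 10545588), rose. Hk2 read 908, 866 and 886, then 1272, 1399 and 1058. The Yap HET arrays lay close together and every Yap KO array lay above them. Its mean rose from 887 ± 21.2 to 1243 ± 172, 1.39-fold (0.48 ± 0.10, limma adjusted p = 0.0236). Leaving out either of Yap HET replicates 1 and 3 or of Yap KO replicates 1 and 2 brought the count of this group to 0 (limma adjusted p of Hk2 up to 0.0727), and leaving out Yap HET replicate 2 brought it to 2 with Pfkl. Hk1, the constitutive hexokinase, read 4790.4, 4461 and 4284, then 4340.2, 4768 and 4885, with overlap (0.05 ± 0.07, limma adjusted p = 0.685). The only accession of that Hk1 probe set is also listed for probe sets of the ribosomal protein gene Rpl17, so the value is uncertain. A second Hk1 probe set read 3068, 3059.7 and 3076, then 3393, 3390.3 and 3308, without overlap and with a log2 change of 0.13.

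Phosphofructokinase commits the sugar to glycolysis. Its liver-type subunit gene Pfkl read 1828, 2073 and 1974, then 2462, 2365 and 2173 (0.25 ± 0.07, limma adjusted p = 0.0604). The platelet-type Pfkp read 2243, 2373 and 2238, then 2808, 2723 and 2376 (0.20 ± 0.07, limma adjusted p = 0.115). Neither gene had overlapping groups, although the margin was narrow in Pfkp. The muscle-type Pfkm read 2202, 2433 and 2321, then 2564, 2475 and 2237, with overlap (0.06 ± 0.07, limma adjusted p = 0.581). The Pfkfb enzymes make and remove a fructose bisphosphate that activates phosphofructokinase. Pfkfb3, known as a hypoxia-induced form, read 343, 379 and 352, then 384, 344 and 349, with overlap (0.0042 ± 0.06, limma adjusted p = 0.972). Pfkfb4 read 128, 134 and 136, then 147, 139 and 143, without overlap (0.11 ± 0.05, limma adjusted p = 0.200), and Pfkfb2 read 269.6, 325 and 299, then 334, 265 and 247, with overlap (-0.09 ± 0.12, limma adjusted p = 0.671).

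None of the enzymes from aldolase to pyruvate kinase passed the test with limma, and Pgk1 alone had an unadjusted p under 0.05. Pgk1, the X-linked phosphoglycerate kinase gene, came closest and read 5816, 5953 and 5748, then 6628, 6484 and 6233, without overlap (0.14 ± 0.05, limma adjusted p = 0.110). Pgam1, a phosphoglycerate mutase gene, read 5367, 5246 and 5164, then 5581, 5663 and 5382, also without overlap (0.08 ± 0.05, limma adjusted p = 0.349). The muscle form Pgam2 read 3289, 3541 and 3502, then 3269, 3582 and 3403, with overlap (-0.01 ± 0.06). Aldoa, the main muscle aldolase, read 8111, 8109.9 and 8059, then 8251, 8246 and 7928, and its groups overlapped (0.0084 ± 0.05). Overlap was also seen in Aldoc, the brain-type aldolase gene (0.19 ± 0.10), the triose phosphate isomerase gene Tpi1 (0.01 ± 0.05), the muscle enolase gene Eno3 (0.08 ± 0.05) and the pyruvate kinase gene Pkm (0.05 ± 0.05). Tpi1 read 5252, 5691 and 5600.1, then 5645, 5557 and 5477, Eno3 4738, 5083 and 4789, then 5131, 5312 and 5045, and Pkm 4612, 4717 and 4536, then 4880.5, 4908 and 4608.

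At the pyruvate branch, 2 genes rose and the other 6 did not pass. Pdk1, a kinase that switches off pyruvate dehydrogenase (probe set 10472846), read 1641, 1896 and 1688, then 2332, 2160.4 and 2144. The groups did not overlap, and the mean rose from 1741 ± 136 to 2212 ± 104, 1.27-fold (0.35 ± 0.07, limma adjusted p = 0.0231). Slc16a3, the lactate exporter of glycolytic cells (probe set 10383502), read 2471, 2671 and 2531, then 3266, 3324 and 2942. It rose from 2558 ± 103 to 3177 ± 206, again without overlap (0.31 ± 0.06, limma adjusted p = 0.0250). Slc16a1, the more widespread lactate transporter, was lower on every Yap KO array with 2214, 2201 and 2086, then 1776, 1949 and 1929, but missed the threshold (-0.20 ± 0.06, limma adjusted p = 0.0656). Pdk4, the isoform raised by fasting, was likewise lower on every Yap KO array with 1619, 1644 and 1516, then 1353, 1464 and 1429 (-0.17 ± 0.06, limma adjusted p = 0.0992). These were the 2 members below without overlap. Pdk2 read 2235, 2392 and 2283, then 2145, 2244 and 2157, with overlap (-0.08 ± 0.05), and the X-linked Pdk3 read 3129, 3241 and 3295, then 3390.1, 3408 and 3412, without overlap (0.08 ± 0.05). The lactate dehydrogenase gene Ldha, a textbook HIF target, read 7038, 7067 and 6915, then 7558, 7169 and 7076, where the groups were apart by a narrow margin (0.05 ± 0.05, limma adjusted p = 0.532), and its change was 0.02 without Yap KO replicate 1. Ldhb, its heart-type counterpart, overlapped (0.03 ± 0.05). The count of 2 became 0 when Yap HET replicate 1 or 3 or Yap KO replicate 1 or 2 was left out, and 1 for Yap KO replicate 3, when Pdk1 was lost (limma adjusted p up to 0.0901 for Pdk1 and 0.105 for Slc16a3).

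**Figure D2:**
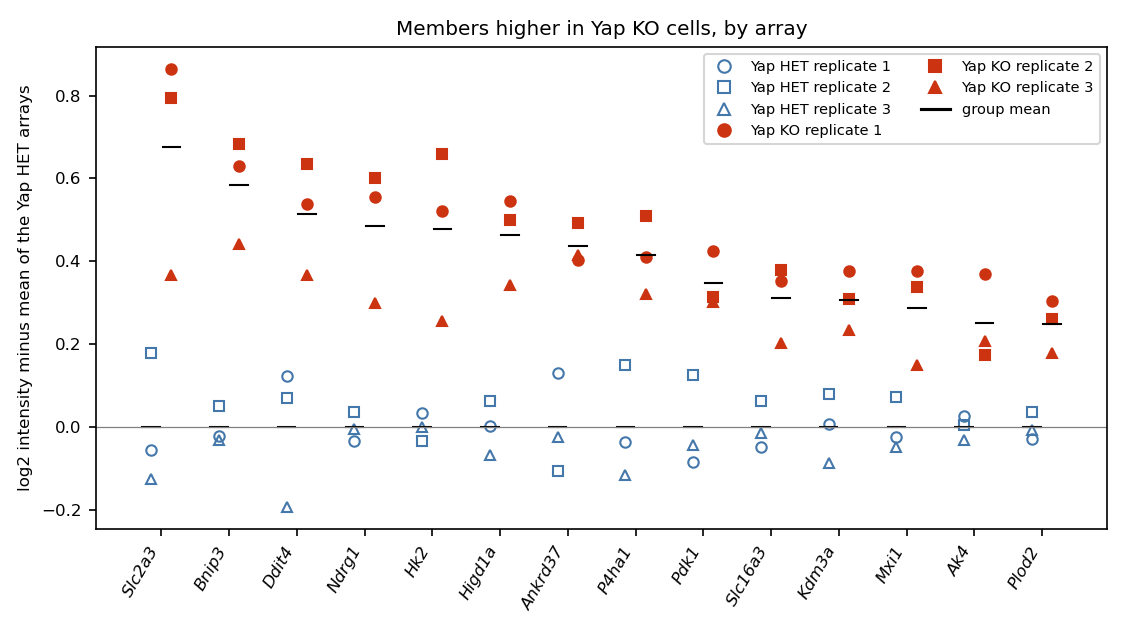
Log2 intensity of the 14 members that rose, minus the mean of the Yap HET arrays, for each array. Open symbols are Yap HET, filled symbols Yap KO and bars group means. All filled symbols lie above the open ones of the same gene, and Yap KO replicate 3 (triangles) is the lowest Yap KO array in 12 of the 14.

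Of the non-metabolic hypoxia genes, Bnip3, a receptor for the removal of mitochondria (probe set 10414269), had the largest log2 change. Bnip3 read 2223, 2338 and 2209, then 3493, 3622 and 3065. Even the lowest Yap KO array was well above the highest Yap HET array, and the mean rose from 2257 ± 71.1 to 3393 ± 292 (0.59 ± 0.07, limma adjusted p = 0.00419). Its relative Bnip3l, which encodes NIX, read 5327, 5376 and 5198, then 5676, 5698 and 5477, without overlap but short of the threshold (0.08 ± 0.05, limma adjusted p = 0.292). Higd1a, a mitochondrial gene induced by low oxygen (probe set 10492860), read 503, 524 and 479, then 732, 709 and 636. It rose without overlap from 502 ± 22.7 to 693 ± 49.9 (0.46 ± 0.07, limma adjusted p = 0.00779). The calls of Bnip3 and Higd1a held in all 16 alternatives. Ak4, a mitochondrial adenylate kinase gene (probe set 10472923), read 1676, 1651 and 1609, then 2124, 1857 and 1899. It rose without overlap (0.25 ± 0.06, limma adjusted p = 0.0465), but the call was lost in 9 of 16 alternatives, including the omission of any array (limma adjusted p up to 0.122).

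Stress and growth regulators followed. Ddit4, an inhibitor of mTOR signalling (probe set 10369290), read 301, 290.1 and 242, then 402, 429 and 356. It rose from 278 ± 31.5 to 396 ± 36.8 (0.51 ± 0.10, limma adjusted p = 0.0204), a call lost when Yap KO replicate 1 or 2 was left out (limma adjusted p up to 0.0862) or with no filter (limma adjusted p = 0.0612). Ndrg1, a stress-response gene (probe set 10429140), read 361, 379 and 369, then 543, 560.4 and 455. It rose from 369.8 ± 9.22 to 519.5 ± 56.8 (0.48 ± 0.08, limma adjusted p = 0.0126), a call lost for Yap HET replicate 1 or Yap KO replicate 2 (limma adjusted p up to 0.0575). In both genes Yap KO replicate 3 was the lowest of its group and still above every Yap HET array. Mxi1, an antagonist of Myc (probe set 10463930), read 683, 730.1 and 672, then 902, 878 and 771 and rose without overlap (0.29 ± 0.07, limma adjusted p = 0.0453). Its call was lost for Yap HET replicates 1 and 3 and Yap KO replicates 1 and 2 (limma adjusted p up to 0.157).

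Enzymes that modify collagen or fold proteins in the endoplasmic reticulum included 2 that rose. P4ha1, a catalytic subunit of collagen prolyl hydroxylase (probe set 10363350), read 1093, 1243 and 1035, then 1490.4, 1595 and 1401. Plod2, a collagen lysyl hydroxylase (probe set 10587829), read 989.6, 1036 and 1004, then 1247, 1211 and 1143. Neither gene had overlapping groups, and P4ha1 rose from 1124 ± 108 to 1495 ± 97.2 (0.41 ± 0.08, limma adjusted p = 0.0211). Plod2 rose from 1009.8 ± 23.6 to 1200.1 ± 53.0 (0.25 ± 0.05, limma adjusted p = 0.0295). Both calls were lost for Yap HET replicates 1 and 3 and Yap KO replicates 1 and 2 (limma adjusted p up to 0.0894 and 0.115). P4ha2 read 381, 425 and 365, then 527, 514 and 418, and Yap KO replicate 3 lay below the highest Yap HET array (0.31 ± 0.10, limma adjusted p = 0.0888). Ero1a, an oxidase that forms disulfide bonds, read 1207, 1341 and 1309, then 1671, 1561 and 1338 and overlapped in the same array (0.24 ± 0.09, limma adjusted p = 0.121). Lox, which cross-links collagen outside the cell, read 150.4, 151 and 139, then 98.9, 96.1 and 158. Its Yap KO replicates 1 and 2 lay below and replicate 3 above all Yap HET arrays (-0.36 ± 0.17, limma adjusted p = 0.224). When Yap KO replicate 3 was left out, Lox fell, the single member to do so in that setting.

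Kdm3a, a histone demethylase gene (probe set 10545308), read 848, 891 and 795, then 1096, 1046 and 993 and rose without overlap (0.31 ± 0.06, limma adjusted p = 0.0254). Its call was lost for Yap HET replicates 1 and 3 and Yap KO replicates 1 and 2 (limma adjusted p up to 0.0973). Ankrd37, an ankyrin repeat gene (probe set 10578515), read 109.8, 93.2 and 98.8, then 133, 141 and 134, close to the filter of 85.7 in Yap HET cells. It rose without overlap (0.44 ± 0.07, limma adjusted p = 0.0105), a call lost for Yap KO replicate 2 (limma adjusted p = 0.0507). Bhlhe40, a transcriptional repressor gene, read 942, 1005 and 923, then 1064, 1039.5 and 1027, without overlap (0.13 ± 0.05, limma adjusted p = 0.168). Of the secreted factors, Vegfa, the main vessel growth factor, read 1779, 1819.6 and 1836, then 2414, 1991 and 1868 (0.20 ± 0.09, limma adjusted p = 0.202), and its change was 0.09 without Yap KO replicate 1. Adm, the peptide adrenomedullin, read 314, 298 and 342, then 549, 479.5 and 317 (0.46 ± 0.18, limma adjusted p = 0.143). In both, Yap KO replicate 1 was the highest array and Yap KO replicate 3 the lowest of its group, within the Yap HET range for Adm. Adm and P4ha2 passed when Yap KO replicate 3 was left out. Below the filter, the carbonic anhydrase gene Car9 read 61.2, 79.5 and 64.0, then 80.8, 75.6 and 53.0, and Car12 read 69.5, 80.2 and 74.4, then 90.0, 119.9 and 77.7, both untested. The count of 10 in the non-metabolic group was 4 when Yap HET replicate 1 was left out, 5 for Yap HET replicate 3, 4 for Yap KO replicate 1 and 2 for Yap KO replicate 2. Over all genes, 1.67%, 2.31%, 3.24% and 1.57% rose in these settings.

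Yap KO replicate 3 was the lowest Yap KO array for 12 of the 14 members that rose (85.7%), against 47.1% of the 690 other genes that rose. Yap HET replicate 2 was the highest Yap HET array for 10 of the 14 (71.4%), against 60.7%. Over the 17 non-metabolic genes, the median difference from the Yap HET mean was 0.40, 0.34 and 0.18 for the Yap KO arrays, and -0.02, 0.05 and -0.03 for the Yap HET arrays. In each metabolic group Yap HET replicate 2 had a median above that of Yap KO replicate 3, so the groups overlapped there. No test was made of these medians.

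**Figure D3:**
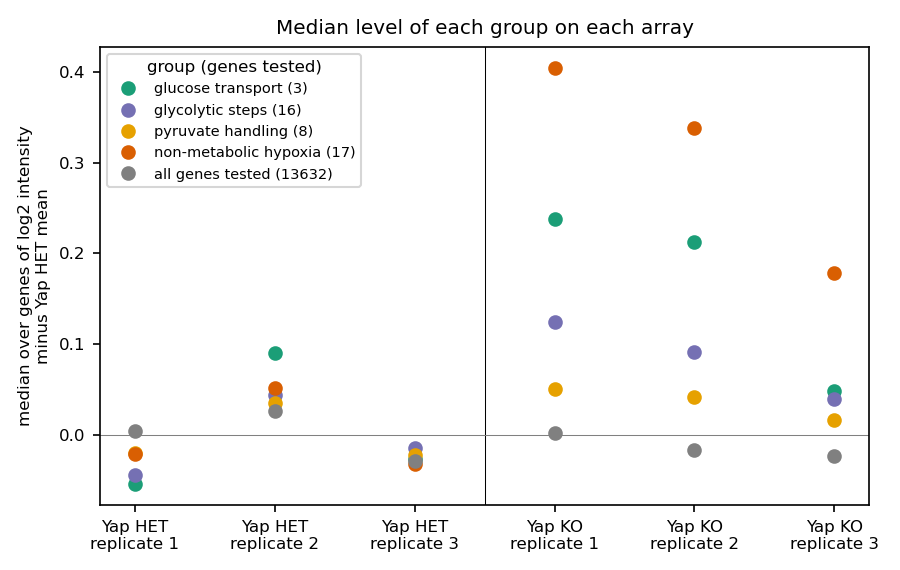
Median over the tested genes of each group of log2 intensity minus the Yap HET mean, for each array. Non-metabolic hypoxia genes stand highest on the 3 Yap KO arrays (0.40, 0.34 and 0.18), and all genes tested stay between -0.03 and 0.03.

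Related members were set against each other within each array, which cancels only a shift that is equal for both genes. Effects that differ between the genes, such as those of other cells or of dissociation, can remain. Of 15 pairs listed, 13 had both genes tested. In 8 pairs the within-array log2 ratio did not overlap between Yap HET and Yap KO cells, each time with the ratio higher in Yap KO cells. The pairs and the order within them were set with earlier results of these data known. No share was computed for other pairs of genes. Of single genes tested, 16.7% lay higher and 17.2% lower in Yap KO cells without overlap. The smallest p that a two-sided exact permutation test allows with 3 arrays against 3 is 0.1, which these 8 reached (adjusted p = 0.163 over 13 pairs by the Benjamini-Hochberg method), so no pair could pass 0.05. The difference of the changes was 0.55 ± 0.14 for Slc2a3 against Slc2a1, 0.51 ± 0.09 for Slc16a3 against Slc16a1 and 0.50 ± 0.06 for Bnip3 against Bnip3l. It was 0.42 ± 0.06 for Pdk1 against Pdk2 and 0.43 ± 0.15 for Hk2 against Hk1. With the second Hk1 probe set, a setting chosen after seeing the data, the latter was 0.35 ± 0.11. Pfkl against Pfkm differed by 0.19 ± 0.01, Pdk3 against Pdk2 by 0.16 ± 0.03 and Pfkp against Pfkm by 0.14 ± 0.03. The other 5 pairs overlapped, with 0.18 ± 0.11 for Aldoc against Aldoa, 0.10 ± 0.07 for P4ha1 against P4ha2 and 0.09 ± 0.10 for Pfkfb3 against Pfkfb2. Ldha against Ldhb gave 0.02 ± 0.03, and Pgam2 against Pgam1 gave -0.09 ± 0.06. Among the 8 pairs without overlap, Hk2 against Hk1 ranged from 0.36 to 0.58 when 1 array was left out, and Slc2a3 against Slc2a1 from 0.47 to 0.66. The Hk2 to Hk1 ratio of Yap KO replicate 3 (0.14) lay near that of Yap HET replicate 3 (0.07). The 5 overlapping pairs also depended on single arrays. P4ha1 against P4ha2 was 0.16 without Yap KO replicate 1 and 0.04 without Yap KO replicate 3, and Pfkfb3 against Pfkfb2 was 0.17 and 0.02 in the same omissions. Pgam2 against Pgam1 was -0.13 when Yap HET replicate 1 was omitted, or -0.05 for Yap KO replicate 1. Aldoc against Aldoa was 0.27 without Yap HET replicate 2, and Ldha against Ldhb was -0.01 without Yap KO replicate 1 and 0.04 or 0.03 without Yap KO replicate 2 or 3.

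**Figure D4:**
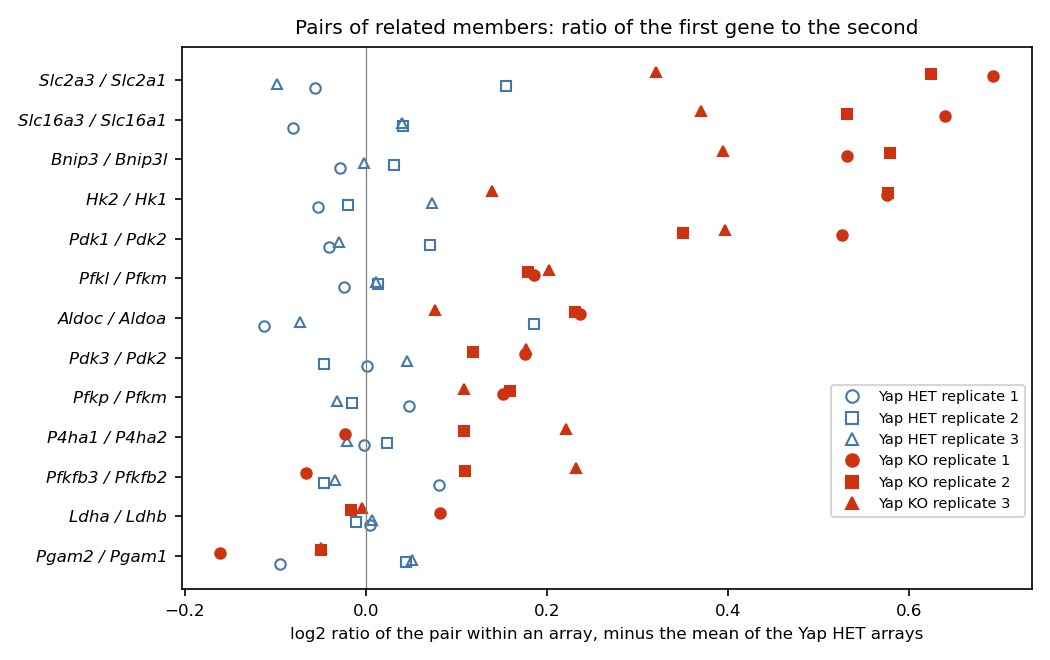
Log2 ratio of the first to the second gene of 13 pairs within an array, minus the mean of the Yap HET arrays. Open symbols are Yap HET and filled symbols Yap KO arrays. In the 8 pairs without overlap all filled symbols lie to the right of the open ones, farthest for Slc2a3 to Slc2a1 (0.55 on average).

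Genes of the same pathways outside the members were counted from lists of their names. All counts here stand against 5.16% of all genes that rose and 4.76% that fell. Among 24 tested genes of other glucose transport, glycolysis and gluconeogenesis, 1 (4.17%) rose and limma called 0 lower (at an unadjusted p under 0.05, 3 and 1). It was Slc2a10, a member of the glucose transporter family, which read 157, 175 and 148, then 197, 204 and 207 (0.34 ± 0.07, limma adjusted p = 0.0231). Of 13 genes of mitochondrial pyruvate entry, the pyruvate dehydrogenase complex and lactate, limma called 0 in either direction (at an unadjusted p under 0.05, 1 and 1). Of 14 genes of glycogen and the pentose phosphate branch, 3 (21.4%) rose and limma called 0 lower (2 lower at an unadjusted p under 0.05), and all 3 act in glycogen metabolism. Ppp1r3c, a glycogen-targeting subunit of protein phosphatase, read 1397, 1349 and 1364, then 1792, 1911 and 1572 (0.36 ± 0.07, limma adjusted p = 0.0270). Ugp2, which makes UDP-glucose, read 1893, 1854 and 1802, then 2133, 2208 and 2226 (0.24 ± 0.05, limma adjusted p = 0.0236), and the branching enzyme gene Gbe1 read 1281, 1381 and 1438, then 1597, 1603 and 1619 (0.23 ± 0.06, limma adjusted p = 0.0413). Their groups did not overlap.

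Among 34 other hypoxia-induced genes tested, 13 (38.2%) rose, against 5.16% of all genes, and limma called 0 lower (1 lower at an unadjusted p under 0.05), with a median log2 change of 0.22. The 6 with the smallest p included the oxygen-sensing prolyl hydroxylase genes Egln3 (0.89 ± 0.09, limma adjusted p = 0.00223) and Egln1 (0.35 ± 0.06, limma adjusted p = 0.0121). The chemokine receptor gene Cxcr4 (0.51 ± 0.05, limma adjusted p = 0.00279) and Tmem45a (0.96 ± 0.11, limma adjusted p = 0.00333) also rose, from 89.3 and 99.1 in Yap HET cells, near the filter. Fam162a, a mitochondrial gene (0.40 ± 0.05, limma adjusted p = 0.00553), and Insig2, a regulator of sterol synthesis (0.38 ± 0.06, limma adjusted p = 0.00767), were the others. Hif1a, the gene of the main HIF alpha subunit, read 4040.4, 3790.3 and 3826, then 3892, 3778 and 3947, with overlap (-0.0046 ± 0.05, limma adjusted p = 0.963). Of 10 tested genes of HIF factors and oxygen sensors, 2 rose (Egln1 and Egln3) and 1 fell, against 5.16% and 4.76% of all genes. The gene that fell was Arnt2, of a partner subunit (-0.38 ± 0.07, limma adjusted p = 0.0175), with a mean of 238 in Yap HET cells. The brighter partner gene Arnt, with a mean of 1200, overlapped (-0.02 ± 0.05, limma adjusted p = 0.823). Epas1, the gene of another alpha subunit, overlapped too (0.22 ± 0.09, limma adjusted p = 0.146).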

How the data were processed

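RNA of sorted E12.5 cardiomyocytes was hybridised to Affymetrix arrays, 3 per group. The values deposited by the authors are intensities, one per probe set (35556), and they are linear. Per the submitters' processing notes RMA was the tool. RMA gives log2 values, and how these became linear is not stated, so log2 was taken here before the test, as the design allowed.

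Of 21789 probe sets with 1 symbol in the platform annotation, 21698 were matched by Entrez identifier to a RefSeq table of GRCm38.p6. The brightest probe set stood for each of 19938 genes, and genes with a geometric mean under 85.7 were left out. Differences were tested with limma 3.58.1 (lmFit, eBayes; R 4.3.3), adjusted over 13632 genes, with a threshold of 0.05. The procedure was tested on simulated data. Pairs were compared by an exact permutation test. There were 16 alternatives, 10 of other settings and 6 that left out an array. The limma p-values set each difference between groups against the spread of arrays within groups, moderated across genes. Litters and pooling of hearts are not stated, so what this spread covers is unknown, and 6 arrays limit precision.

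Members, lists and pairs were chosen with earlier results of these data known. Array values are given for members past the threshold, members without overlap and the brightest probe set of each step, and at most 6 called genes are named from each other list. A few more members are given so that each is accounted for.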

Additional observations from a re-analysis of the deposited data

How the results depend on the processing

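Group medians stayed above 0 in all 16 alternatives, while counts of calls moved. No filter, a trended and robust prior and the replicate number as a block left the medians as they were, since they do not alter the log2 changes. With no filter 4 members rose (0 in glucose transport, 0 in glycolytic steps, 0 in pyruvate handling, 4 non-metabolic) and 508 of all genes changed. With array weights 27 members rose, 3 in glucose transport and 7 in glycolytic steps, while 3 fell and 4617 of all genes changed. With a trended and robust prior 2 members fell, 2 rose in glucose transport and 4 in glycolytic steps, and 2246 of all genes changed. Rises made up 1.36% of the genes tested with no filter, 15% with array weights and 8.72% with this prior, against 5.16% in the main setting. They made up 9.13% with a filter at the 60th percentile and 7.03% with quantile normalization. A filter at the 60th percentile and quantile normalization each gave 1 member that fell, Slc16a1, and 2 that rose in glycolytic steps. Median centring gave 2 there and medians of 0.216 over all members, 0.131 in glycolytic steps, 0.104 in pyruvate handling and 0.04 over all genes. The labels do not say whether replicate numbers pair the arrays. Deviations from the group mean correlated at -0.0765, -0.171 and 0.124 for arrays of the same number, which are too few to decide it. With the replicate number as a block 10 members rose, 1 in pyruvate handling. Over all genes 698 changed and 2.9% rose. The mean over probe sets, an offset of 16 before log2 and Xist as a covariate gave 13, 14 and 14 rises, against 5.19%, 5.49% and 5.55% of all genes. Leaving out 1 array gave 2 to 14 rises and 0 to 1 falls, with 0 to 1 rises in glucose transport, 0 to 2 in glycolytic steps, 0 to 2 in pyruvate handling and 2 to 11 in the non-metabolic group, and 433 to 1375 changes over all genes. In these settings 1.57% to 5.74% of all genes rose. Medians then ranged from 0.1175 to 0.1981 over all members, 0.13 to 0.2255 in glucose transport, 0.05389 to 0.09878 in glycolytic steps, 0.02904 to 0.05497 in pyruvate handling and 0.2507 to 0.3572 in the non-metabolic group. Pairs without overlap numbered 8 to 10. Leaving out an array could not bring this under 8, because groups that are apart stay apart with fewer arrays. Ldha against Ldhb ranged from -0.0106, without Yap KO replicate 1, to 0.03846. The causes were not tested. No detection call was used, so values near the filter cannot be told from background.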

Other observations

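Of the members, 9 had several probe sets of a single symbol. Both Bnip3 probe sets (log2 changes of 0.59 and 0.58), both of Higd1a (0.46 and 0.46) and both of Ak4 (0.25 and 0.21) were higher on every Yap KO array than on every Yap HET array. When each probe set was tested on its own, the limma adjusted p was 0.0157 and 0.0179 for Bnip3, 0.0245 and 0.0306 for Higd1a and 0.0800 and 0.165 for Ak4, so neither Ak4 probe set passed.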
